A study of Mus musculus with 4 samples.

Results

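The cytosolic ribosomal protein genes encode the protein part of the ribosome that works outside mitochondria. The large subunit (Rpl and Rplp genes) forms peptide bonds and carries the nascent chain out through its exit tunnel, and the small subunit (Rps genes) reads the messenger RNA. All of these proteins are needed in matched amounts, and the genes are among the most highly transcribed in dividing and secreting cells. Many start transcription at a cytosine within a short run of pyrimidines (the terminal oligopyrimidine, or TOP, tract), through which mTOR controls their translation. Acetylation of histone H3 at lysine 27 (H3K27ac) is a mark of active promoters and enhancers, and HDAC3 is a histone deacetylase of the NCoR and SMRT corepressor complexes.

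Members were all protein-coding genes whose symbol is Rpl or Rps followed by a number, with or without a p between them, with kinases of the Rps6k family and pseudogenes left out. This gave 88 of 21887 protein-coding genes. Of these, 76 were core ribosomal protein genes, 46 of the large and 30 of the small subunit. The other 12 were paralogs or other genes with such a symbol: Rpl10l, Rpl22l1, Rpl32l, Rpl36al, Rpl37rt, Rpl39l, Rpl3l, Rpl7l1, Rps19bp1, Rps23rg1, Rps27l and Rps27rt. Rps19bp1 is a regulator of the deacetylase SIRT1 and not a ribosomal protein. Members were chosen by symbol, with no measured value in the rule. A gene was called marked when any base of a peak lay within 1 kb of either annotated end of the gene.

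The samples were primary chondrocytes of C57Bl/6 mice grown ex vivo in micromass culture, a dense drop of cells that lays down cartilage matrix. One culture, labelled hdac3-knockout, had been transduced with an adenovirus carrying Cre recombinase. The control culture, labelled wild-type, had been transduced with a GFP control adenovirus. Both H3K27ac libraries had been made by immunoprecipitation of sonicated chromatin with an anti-H3K27Ac antibody. Each condition had 1 library, so no difference below has a replicate check and no p-value is given. Not given in the sources used here are the alleles on which Cre acted, the age and sex of the mice and the number of animals behind each culture. The 2 input libraries were not analysed here.

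The Cre list held 13130 peaks and the GFP list 12873. The number of fragments at a peak's summit, its pileup, was solved from the deposited fold and p-value, and ran from 7 to 63 fragments for Cre peaks and from 7 to 58 for GFP peaks. Over most of the genome the expected pileup was 1.01 for Cre and 0.949 for GFP, which differ by a factor of 1.06. Of 8 chondrocyte markers, 7 were marked by Cre peaks and all 8 by GFP peaks, and each had a peak within 10 kb in both; Matn3, a matrix protein gene, lacked a Cre peak at its ends. Of 4 fibroblast markers, Dcn alone was marked in either list. None of 3 osteoblast, 3 macrophage and blood and 3 endothelial markers was marked in either list. Within 10 kb, however, 3 of the fibroblast markers (Prrx1, Col3a1 and Dcn) and 1 osteoblast marker (Sp7) had peaks in both lists. Of the macrophage and blood markers, Cd68 had 3 GFP peaks within 10 kb and no Cre peak. No endothelial marker had a peak within 10 kb. An H3K27ac profile does not measure the deletion of Hdac3, so these lists do not check the genotype labels.

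Promoter sequences show which letters surround the transcription starts of members with and without the mark. RefSeq promoters (GRCm38.p6) matched 68 of the 88 members. Shown are 100 bases before and 25 from the listed start of 8 members, with the strand of the gene. Rplp2 (chromosome 7, 141447551 to 141447675, plus strand) and Rpl28 (chromosome 7, 4792865 to 4792989, plus strand) were marked in both lists and start inside a pyrimidine run. Rps23 (chromosome 13, 90923022 to 90923146, plus strand) and Rpl4 (chromosome 9, 64173287 to 64173411, plus strand) had among the strongest peaks of the group. Rpl19 (chromosome 11, 98026610 to 98026734, plus strand) had a strong peak at its listed start but none at its annotated gene ends. Rps10 (chromosome 17, 27635220 to 27635344, minus strand) and Rps7 (chromosome 12, 28635929 to 28636053, minus strand) had no peak in either list. Rpl3l (chromosome 17, 24727726 to 24727850, plus strand), the striated muscle paralog of Rpl3, had none either. Capitals mark the ETS core (CCGGAA or TTCCGG), the YY1 core (AAGATGG or CCATCTT), and a run of at least 5 pyrimidines that covers the first transcribed base:
Rplp2: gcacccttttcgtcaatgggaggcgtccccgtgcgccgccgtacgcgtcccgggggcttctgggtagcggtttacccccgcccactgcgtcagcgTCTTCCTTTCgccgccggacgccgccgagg
Rpl28: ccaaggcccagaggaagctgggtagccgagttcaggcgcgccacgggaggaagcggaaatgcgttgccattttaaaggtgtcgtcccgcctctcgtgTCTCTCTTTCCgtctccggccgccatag
Rps23: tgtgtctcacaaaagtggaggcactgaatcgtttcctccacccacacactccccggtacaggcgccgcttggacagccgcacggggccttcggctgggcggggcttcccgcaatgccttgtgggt
Rpl4: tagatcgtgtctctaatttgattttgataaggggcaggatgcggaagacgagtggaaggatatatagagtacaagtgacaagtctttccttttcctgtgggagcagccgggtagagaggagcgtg
Rpl19: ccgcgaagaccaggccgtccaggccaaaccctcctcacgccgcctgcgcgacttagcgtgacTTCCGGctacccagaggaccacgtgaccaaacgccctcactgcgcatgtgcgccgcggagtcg
Rps10: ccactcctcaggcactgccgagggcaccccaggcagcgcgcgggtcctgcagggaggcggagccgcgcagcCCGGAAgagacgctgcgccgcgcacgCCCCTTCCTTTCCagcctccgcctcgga
Rps7: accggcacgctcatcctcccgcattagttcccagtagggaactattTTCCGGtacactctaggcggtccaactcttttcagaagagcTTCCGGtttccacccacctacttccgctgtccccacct
Rpl3l: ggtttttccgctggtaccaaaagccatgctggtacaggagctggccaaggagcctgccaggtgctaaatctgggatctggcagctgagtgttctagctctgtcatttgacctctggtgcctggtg

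Both the mark and its absence occurred with and without these letters. The ETS core, the binding core of factors such as GABP, was present on either strand in 32 of the 68 member promoters (47.1%, exact 95% interval 34.8 to 59.6), counting 250 bases before and 50 from the start. Over all 17492 promoters of the table, 19.1% had it. Among members with a promoter entry it was found in 18 of 41 marked in both lists and in 9 of 19 marked in neither. The YY1 core was found in 10 member promoters (14.7%, 7.28 to 25.4), against 6.35% of all promoters. TATAAA, the core of the TATA box, searched on both strands, was in 8 (11.8%, 5.22 to 21.9), against 13.3%. It was in 2 of the 41 members marked in both lists and in 6 of the 19 marked in neither. In these splits a member counts as marked by peaks at its gene ends, not at its listed start. The 19 include paralogs, and also Rpl18, Rpl19, Rpl22, Rps2 and Rps27l, which had peaks in both lists at a listed start. The splits therefore do not compare marked with unmarked starts.

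The start itself carried the pyrimidine letters more often in members than over all promoters. In 21 member promoters (30.9%, 20.2 to 43.3) the listed start lay within a run of at least 5 C or T, as in Rplp2, Rpl28 and Rps10, against 8.60% of all promoters. The first transcribed base was C in 24 members (35.3%, 24.1 to 47.8), against 13.7%. CTTTC or TTTCC, searched on the gene's strand within 25 bases of the start, was in 24 members (35.3%), against 10.7%. The 2 words can overlap each other, the second can share letters with the ETS core, and each promoter was counted once. Listed starts are single positions from the annotation, so a run beside a start that is off by a few bases is missed.

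Most ribosomal protein genes carried H3K27ac in both cultures. In the Cre list 64 of 88 members were marked (72.7%, exact 95% interval 62.2 to 81.7), against 13.5% of all protein-coding genes. In the GFP list 58 were marked (65.9%, 55.0 to 75.7), against 14% of all protein-coding genes. Both lists marked 55 members (62.5%, 51.5 to 72.6; 9.26% of all genes). Another 9 were marked in the Cre list alone (10.2%, 4.78 to 18.5; 4.28% of all genes), and 3 in the GFP list alone (3.41%, 0.709 to 9.64; 4.77% of all genes). The intervals of the Cre and GFP shares overlap. They treat genes as independent draws and leave out that both shares are of the same 88 genes, so their overlap does not compare the libraries. They do not cover variation between cultures. In bulk chromatin, fewer marked cells and less mark per cell cannot be told apart. Peaks of a −log10 q-value of at least 10 marked 26 members in the Cre list (3.66% of all genes), 22 in the GFP list (3.87%) and 16 in both (2.28%). In all, 67 members were marked in at least 1 list (76.1%; 18.3% of all genes) and 21 in neither.

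The shares of the subunits differed by less than their intervals, and few paralogs were marked. Of the 46 core genes of the large subunit, 38 were marked in the Cre list (82.6%, 68.6 to 92.2) and 35 in the GFP list (76.1%, 61.2 to 87.4). Of the 30 core genes of the small subunit, 24 were marked in the Cre list (80%, 61.4 to 92.3) and 22 in the GFP list (73.3%, 54.1 to 87.7). Among the 12 paralogs and other symbols, the Cre list marked Rpl36al and Rpl7l1 and the GFP list marked Rpl36al. The unmarked paralogs include Rpl3l, used in striated muscle, and Rpl10l and Rpl39l, which are expressed in male germ cells. Some ribosomal genes have symbols that the rule does not take. Rpsa, a small subunit protein gene, had 1 peak in each list, with 10 Cre and 13 GFP fragments. Fau, which encodes a ubiquitin-like protein fused to a small subunit protein, had a Cre peak of 13 fragments and no GFP peak. Rack1, a scaffold on the small subunit, had 4 peaks in each list with 17 fragments at the strongest of each.

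Other lists of the translation machinery, chosen by symbol or function, had lower shares, elongation factors excepted. Of 78 mitochondrial ribosomal protein genes, 20 were marked in the Cre list (25.6%, 16.4 to 36.8) and 24 in the GFP list (30.8%, 20.8 to 42.2). Of 56 translation initiation factor genes, taken by the symbol Eif alone, 19 were marked for Cre (33.9%) and 26 for GFP (46.4%). In the Cre list alone 2 were marked (3.57%, 0.435 to 12.3), against 4.28% of all genes. In the GFP list alone 9 were marked (16.1%, 7.62 to 28.3), against 4.77% of all genes. With 1 library per group these counts do not compare the cultures. The symbol also takes Eif2ak and Eif4ebp genes, which are not initiation factors. Among those, only Eif2ak3 and Eif4ebp1 were marked. Eif2s1, the alpha subunit of eIF2, had 43 Cre and 45 GFP fragments at its strongest peak. Of 42 ribosome biogenesis genes, 13 were marked for Cre (31.0%) and 16 for GFP (38.1%). Npm1, encoding the nucleolar protein nucleophosmin, had 1 Cre peak of 15 fragments and no GFP peak, and Ncl, encoding nucleolin, had none in either list. Of 6 elongation factor and related genes, 5 were marked for Cre and 4 for GFP. Eef2, the translocase of elongation, had 2 Cre peaks and no GFP peak, while Eef1b2, an exchange factor for eEF1A, had 24 Cre and 18 GFP fragments.

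**Figure D1:**
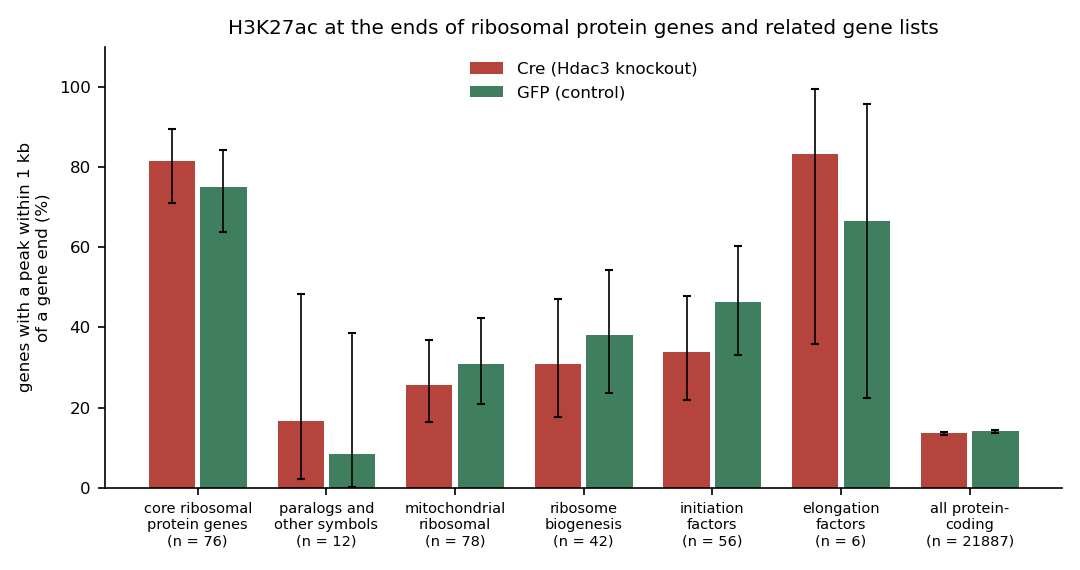
Share of genes (vertical axis, percent) with an H3K27ac peak within 1 kb of an annotated gene end in the Cre library and the GFP library, for core ribosomal protein genes, their paralogs, related gene lists and all protein-coding genes. Bars are shares of 1 library each and lines are exact 95% intervals. Core ribosomal protein genes reached 81.6% for Cre and 75% for GFP, against 13.5% for Cre and 14% for GFP of all protein-coding genes. All 88 members together reached 72.7% for Cre and 65.9% for GFP. Paralogs were set apart for ribosomal protein genes only, not in the related lists.

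The highest fold of the group in the Cre list lay at Rps27a, which encodes ubiquitin fused to a small subunit protein. It spanned chromosome 11, 29547949 to 29548131 in the Cre list (mm10), with 41 fragments at the summit and a fold enrichment of 20.9, the authors' ratio of observed to expected pileup. The GFP peak at the same place, 29547932 to 29548131, had 33 fragments and a fold of 17.4. The Cre summit lay 15 bp and the GFP summit 14 bp beyond the gene's upper end. Clhc1 and Mtif2 also have an end within 1 kb of an end of Rps27a. In the GFP list the highest fold belonged to Rps23, a protein of the decoding centre. Its peak had 27 fragments and a fold of 13.9 in the Cre library, against 44 fragments and a fold of 22.4 in the GFP library. The exact Poisson intervals of these counts, 17.8 to 39.3 in the Cre and 32.0 to 59.1 in the GFP library, overlap. Both summits lay just upstream of the start, by 123 bp for Cre and 70 bp for GFP; the GFP summit falls within the sequence printed above.

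Strong peaks of other members were also found in both libraries. Rpl32, a large subunit gene, had 36 Cre and 38 GFP fragments at its highest-fold peak. Rpl21, also of the large subunit, had 44 Cre and 33 GFP fragments. Rpl4, whose product lines the exit tunnel, had 30 Cre and 36 GFP fragments. The counting intervals of each of these pairs overlapped. Rplp2, a protein of the stalk that recruits elongation factors, had 28 Cre and 20 GFP fragments. Rpl3, which lies by the peptidyl transferase centre, had 27 Cre and 18 GFP fragments. Rpl13a had 26 Cre and 21 GFP fragments, and Rps16 had 23 Cre and 18 GFP fragments. The intervals of these 4 genes overlapped as well. Rpl7 had 29 Cre and 32 GFP fragments. Rps26, mutated in some cases of Diamond-Blackfan anaemia, had 24 Cre and 25 GFP fragments. Rpl28 had 18 Cre and 25 GFP fragments, and Rpl30 had 18 Cre and 19 GFP fragments, each pair again with overlapping intervals. At each of the genes from Rpl32 to Rpl30 named here, the Cre and GFP peaks themselves overlapped.

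Rpl35a, also a gene of Diamond-Blackfan anaemia, shows how fold and pileup can part. Its peak upstream of the start had 39 Cre and 52 GFP fragments, the highest GFP pileup among members. The fold was 12.0 for Cre and 9.37 for GFP, because the local expected pileup was 2.34 for Cre and 4.66 for GFP. Where the local background differs in this way, the order of the libraries depends on which of these values is read.

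**Figure D2:**
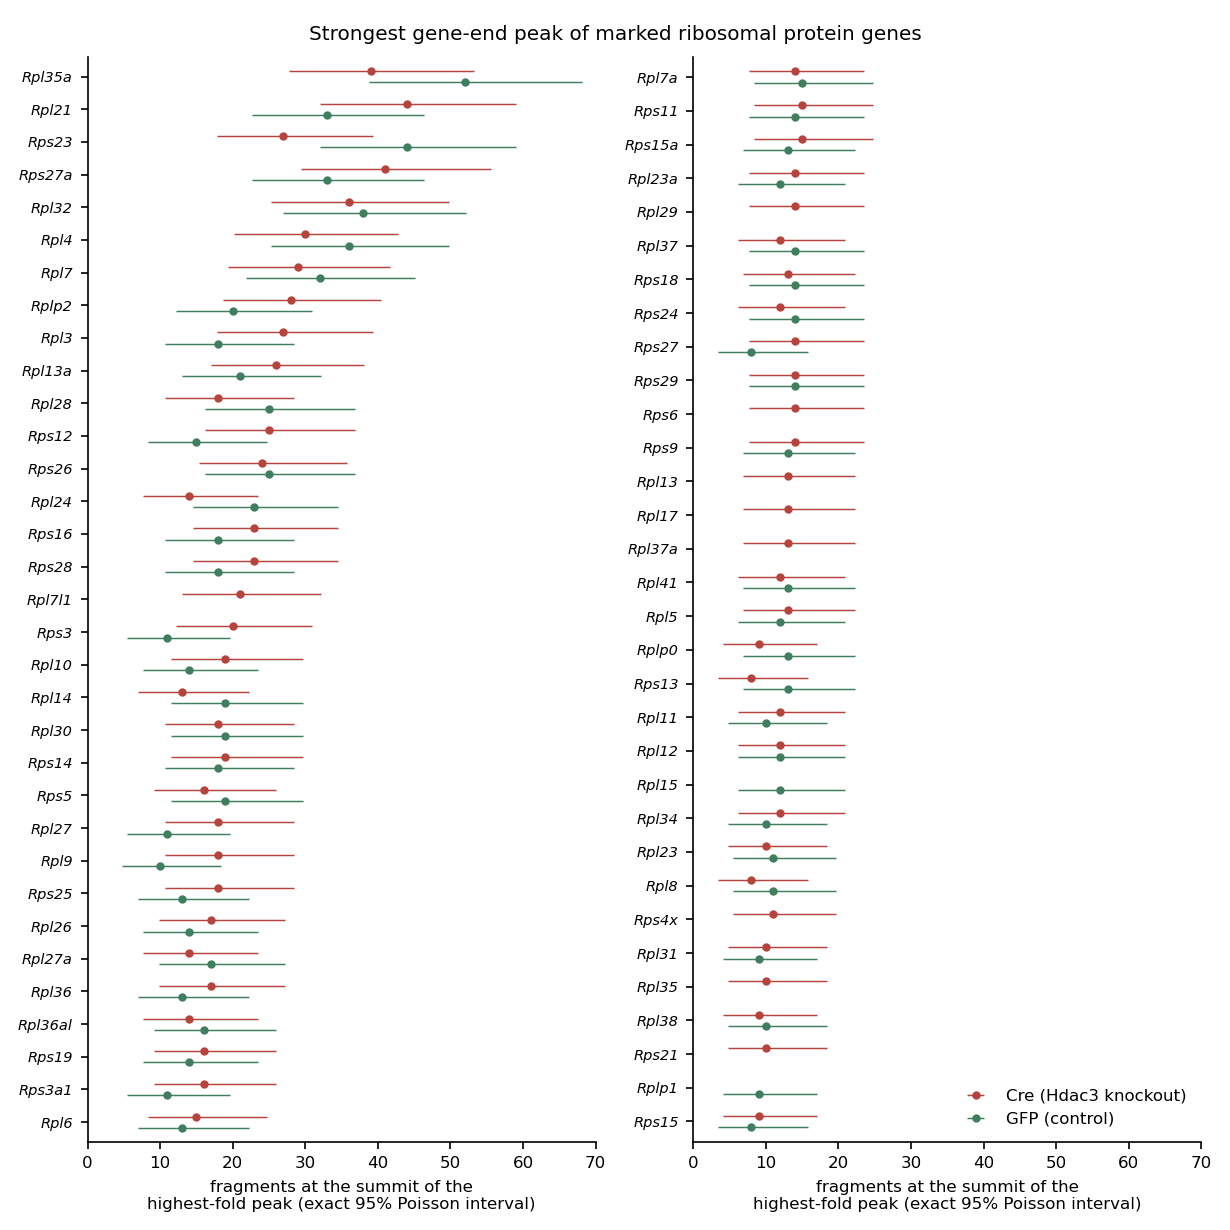
Fragments at the summit of the highest-fold gene-end peak (horizontal axis) of 65 of the 67 marked ribosomal protein genes, in the Cre library (upper point of each pair) and the GFP library (lower point). Lines are exact 95% Poisson intervals and a missing point means no peak. The peaks of a pair overlap at 40 of 55 members and lie at different sites at the other 15. Cre counts range from 8 fragments at Rpl8 and Rps13 to 44 at Rpl21, and GFP counts from 8 at Rps15 and Rps27 to 52 at Rpl35a.

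The highest-fold peaks of the libraries overlapped at 40 of the 55 members marked in both lists (72.7%), and at the other 15 they lay at different sites near the gene. Over the 40 overlapping pairs, the pileup was higher in the Cre library at 20 members, equal at 2 and lower at 18, with a median of 16.5 fragments in both libraries. Among other genes marked in both lists the highest-fold peaks overlapped at 1217 of 1971 (61.7%), and there the pileup was higher in the Cre library at 543, equal at 118 and lower at 556. The ratio of Cre to GFP pileup over the 40 pairs had a median of 1.03. It ran from 0.609 at Rpl24, with 14 Cre and 23 GFP fragments, to 1.67 at Rps12, a small subunit gene, with 25 Cre and 15 GFP fragments. The counting intervals of these counts overlapped at both genes. Larger ratios belonged to pairs at different sites, such as Rps3, with a Cre peak of 20 fragments and a GFP peak of 11 fragments 138 bp apart. Peaks within reach of the ends of the 55 members covered 26150 bp for Cre and 27583 bp for GFP, with more Cre than GFP coverage at 26 members and less at 29. At the 1971 other genes marked in both lists, coverage summed by gene was 808987 bp for Cre and 840363 bp for GFP. There Cre coverage was larger at 982 genes, equal at 14 and smaller at 975.

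The 9 members marked in the Cre list alone had 10 to 21 fragments at their highest-fold peak. Rpl7l1, a paralog of Rpl7, had the highest fold of them (8.59) and 21 fragments, and the nearest GFP peak lay 1537 bp beyond the gene's 3′ end. Rps6, whose phosphorylation by S6 kinase follows mTOR activity, had 2 Cre peaks of 14 fragments each. They lay 276 bp upstream and 640 bp inside the gene, and the nearest GFP peak was 277922 bp away. Rpl29 had 2 Cre peaks, of 14 and 9 fragments, and the nearest GFP peak lay inside the gene, 1059 bp from an end and so just beyond the window. Rpl13 and Rpl37a, genes of the large subunit, had 13 fragments each. Rps4x, the X-linked small subunit gene, had 11 fragments. Rpl35 and Rps21 had 10 fragments each. Rpl17 had 13 fragments in a peak inside the gene whose edge lay 975 bp from the gene's end, the farthest among the nearest peaks of marked members. Its nearest GFP peak, also inside the gene, lay 1787 bp from that end.

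Among the members marked in the GFP list alone, Rpl15, a large subunit gene, had 12 fragments and a fold of 6.67. Rplp1, the partner of Rplp2 in the stalk, had 9 fragments and a fold of 5.13. The nearest Cre peak was 29576 bp from Rpl15 and 428291 bp from Rplp1. With counts of this size a site absent from a list may lie only slightly below the limit for calling, which was not tested.

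Members close to the limit of 1 kb had their nearest peak inside the gene, and the distances given here run from the nearer gene end to the edge of that peak. Just within the limit, after Rpl17, were Rplp0 at 785 bp and Rpl5 at 763 bp in the Cre list. In the GFP list these were Rpl27 at 753 bp, Rpl15 at 697 bp and Rplp0 at 671 bp. Just beyond it were Rpl22 at 1006 bp, Rps27l at 1074 bp and Rps2 at 1410 bp in the Cre list. In the GFP list these were Rpl22 at 1011 bp, Rpl29 at 1059 bp and Rpl10a at 1078 bp.

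The members without a peak in either list included Rpl10a, Rpl10l, Rpl18, Rpl19, Rpl22, Rpl22l1, Rpl32l, Rpl36a, Rpl37rt, Rpl39, Rpl39l, Rpl3l, Rps10, Rps19bp1, Rps2, Rps20, Rps23rg1, Rps27l, Rps27rt and Rps7. For several of them the annotated gene end is not the start that RefSeq's promoters list. The listed start of Rpl19 lies 4707 bp inside its annotated gene, that of Rpl18 2604 bp, that of Rps2 1942 bp and that of Rps27l 1462 bp, and Rpl22 has a second listed start 1290 bp inside. In an alternative chosen after these values were seen, windows around all listed starts were added to those around the gene ends. The marked members then numbered 69 in the Cre list (78.4%, 68.4 to 86.5; 15% of all genes) and 64 in the GFP list (72.7%, 62.2 to 81.7; 15.5% of all genes), with 60 in both (10.4% of all genes).

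Rpl19, a large subunit gene often used as an expression reference, was the strongest member gained. Its Cre peak, chromosome 11, 98026758 to 98026929, had 33 fragments and a fold of 13.3. Its GFP peak, 98026759 to 98026958, had 27 fragments and a fold of 14.4. The Cre summit lay 109 bp and the GFP summit 144 bp past the transcription start of the sequence printed above; both lay upstream of a further listed start, by 105 bp for Cre and 70 bp for GFP. At Rpl18 the highest-fold peaks lay at different sites, with a Cre peak of 12 fragments whose summit lay 662 bp past the listed start and a GFP peak of 17 fragments 530 bp before it. Rpl22, a large subunit gene, had 17 Cre and 13 GFP fragments in overlapping peaks. Rps2 had 12 Cre and 11 GFP fragments, and Rps27l, a p53 target, 11 Cre and 10 GFP fragments, also in overlapping peaks. With these starts, 66 of the 76 core genes were marked by Cre peaks and 62 by GFP peaks, and those with no peak in either included Rpl36a, Rpl39, Rps10, Rps20 and Rps7. Rpl36a and Rpl39 are X-linked; of the other X-linked members, Rpl10 was marked in both lists and Rps4x in the Cre list alone.

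Most member peaks lay at the 5′ end of the gene. Strand was known for the 68 members with a promoter entry. A peak lay within 1 kb of the 5′ end in 47 of them in the Cre list (69.1%, 56.7 to 79.8; 13.1% of all genes with a strand) and in 40 in the GFP list (58.8%, 46.2 to 70.6; 13.7%). At the 3′ end this was 12 in the Cre list (17.6%, 9.47 to 28.8; 1.7% of all genes with a strand) and 10 in the GFP list (14.7%, 7.28 to 25.4; 1.6%). Member genes are short, with a median length of 3179 bp against 17286 bp for other genes, so the windows of their ends lie close together. Of 79 Cre member peaks with a known strand, 69 had a summit nearer to the 5′ end (87.3%), and of 72 GFP peaks 64 did (88.9%). For peaks at other genes the shares were 89.2% for Cre and 90.1% for GFP.

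Around the 5′ end, most peaks lay inside the gene, and most of the tallest lay upstream. Of the 71 Cre peaks in the 5′ window, 24 had a summit upstream of the gene end (33.8%, 23.0 to 46.0), and of 65 GFP peaks 23 did (35.4%, 23.9 to 48.2). Among other genes, 45.6% of such Cre peaks and 47.4% of GFP peaks were upstream. The median upstream position was -317.5 bp for Cre and -365 bp for GFP peaks, and the median position inside the gene was 640 bp for Cre and 598 bp for GFP peaks. The fullest bin of 250 bp lay 500 to 750 bp into the gene, with 15 of 79 Cre peaks (19.0%) and 16 of 72 GFP peaks (22.2%), against 12.8% at other genes in each list. Within 100 bp of the 5′ end lay 1 Cre summit (1.41%) and 2 GFP summits (3.08%), against 4.69% for Cre and 4.74% for GFP at other genes.

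Upstream member peaks had a median of 18 Cre and 16 GFP fragments, and those inside the gene a median of 12 Cre and 13 GFP fragments. At other genes the upstream median was 13 in both libraries. Among member peaks of at least 20 fragments, 9 of 11 Cre peaks (81.8%, 48.2 to 97.7) and 6 of 8 GFP peaks (75%, 34.9 to 96.8) were upstream. At other genes the shares were 60.1% for Cre and 60% for GFP peaks. Lower member peaks were upstream in 25% of the Cre and 29.8% of the GFP peaks, against 43.4% for Cre and 45.7% for GFP peaks at other genes. Rpl35a, Rps23, Rplp2 and Rps26 are members with a tall upstream peak, and Rpl13a, with its highest-fold peak 360 bp inside the gene for Cre and 376 bp for GFP, is an exception. Another protein-coding gene has an end within 1 kb of an end of Rpl35a (Iqcg) and of Rplp2 (Pidd1), but not of Rps23 or Rps26. Whether upstream peaks belong to such neighbours was not tested. The tall member peaks are few, and their intervals include the shares at other genes.

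**Figure D3:**
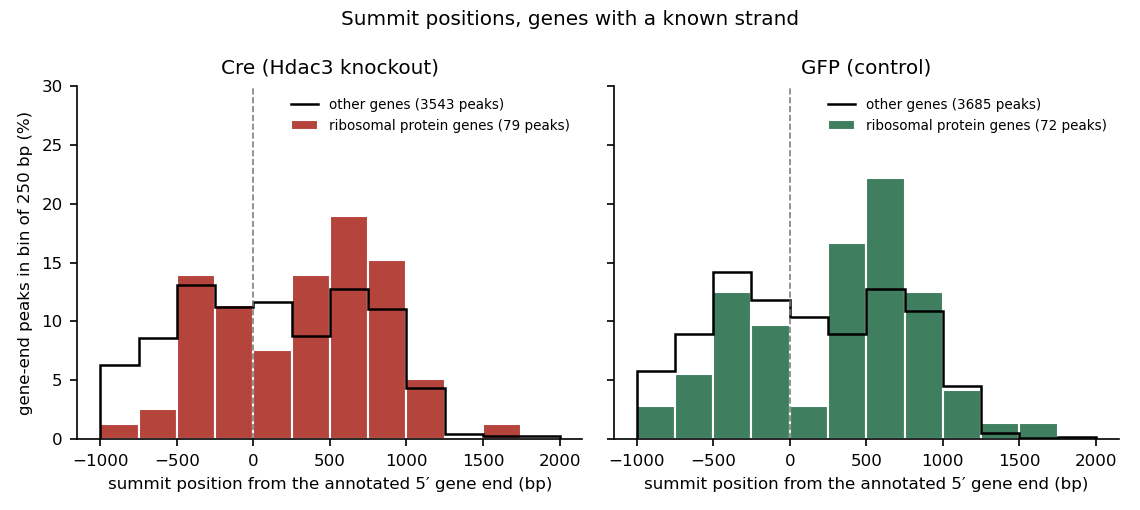
Summit positions of gene-end peaks relative to the annotated 5′ end (horizontal axis, bp, positive into the gene) in bins of 250 bp, as percent of peaks, with the Cre library on the left and the GFP library on the right. Filled bars are ribosomal protein genes (79 Cre and 72 GFP peaks) and the line is all other genes with a known strand; the fullest member bin is 500 to 750 bp in both.

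A gap at the start was visible in single genes. A pair of peaks, 1 upstream and 1 inside the gene, flanked the 5′ end in 13 of 47 members in the Cre list (27.7%, 15.6 to 42.6) and in 11 of 40 in the GFP list (27.5%, 14.6 to 43.9), against 19.1% for Cre and 18.3% for GFP at other genes. The median distance between the flanking summits was 795 bp for Cre and 826 bp for GFP peaks, against 936 bp for Cre and 946.5 bp for GFP peaks at other genes. At Rpl4 the flanking summits lay at -354 and 116 bp in the Cre list and at -363 and 124 bp in the GFP list. At Rps25, a small subunit gene used in internal initiation, they lay at -218 and 480 bp in the Cre list and at -228 and 475 bp in the GFP list. The positions of Rpl4 and Rps25 recurred within 10 bp between the libraries. At Rps16 they lay at -483 and 669 bp in the Cre list and at -477 and 467 bp in the GFP list, so only its upstream summit recurred as closely.

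**Figure D4:**
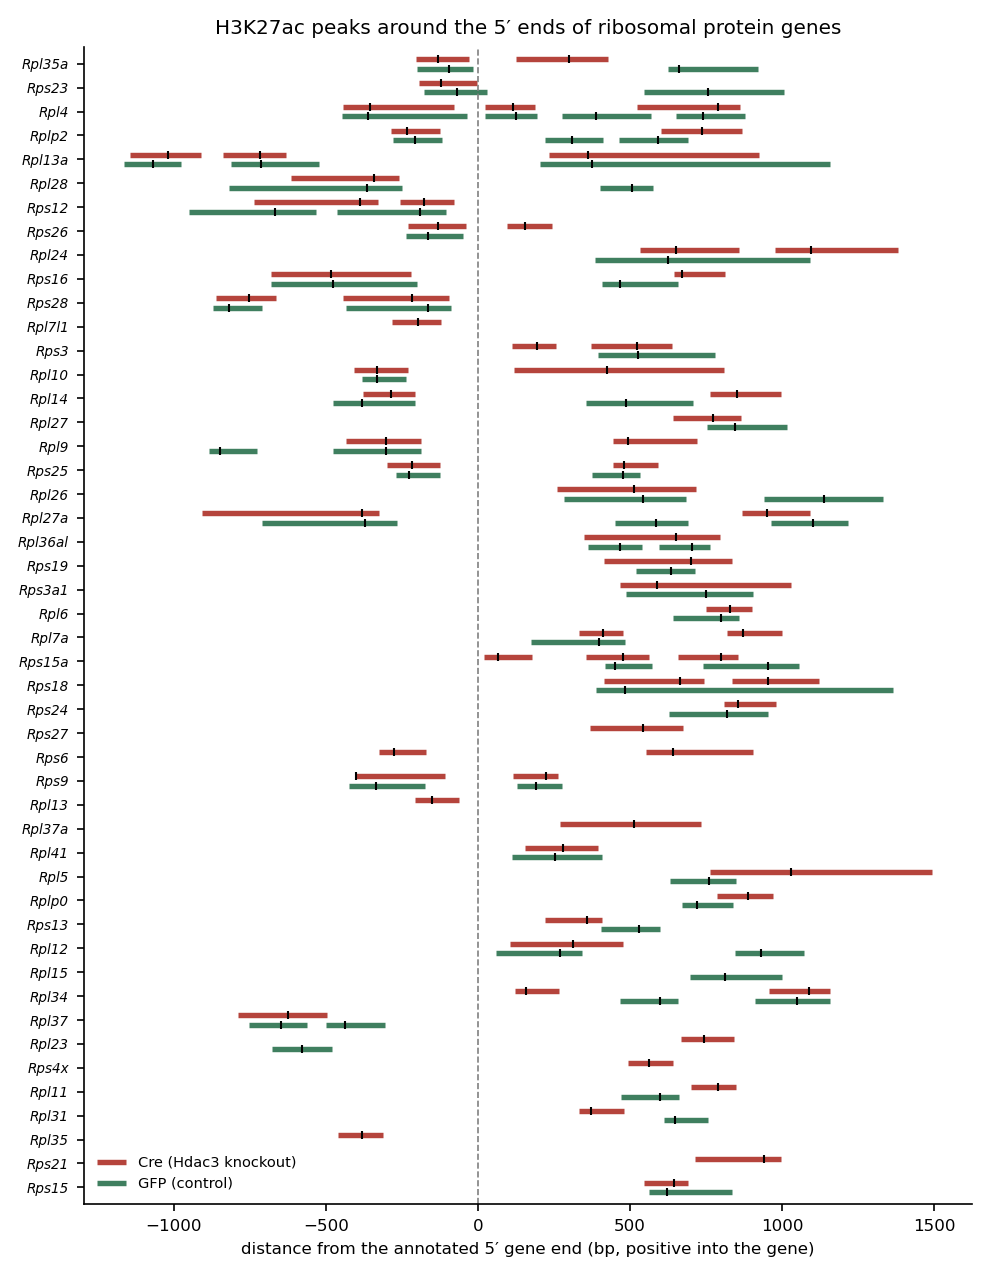
Extent of each H3K27ac peak (bars) and its summit (black ticks) around the annotated 5′ end (dashed line) of 48 ribosomal protein genes with a known strand; the horizontal axis is distance in bp, positive into the gene. For each gene the Cre library is the upper bar and the GFP library the lower; 71 Cre and 65 GFP peaks are drawn, and few cross the 5′ end.

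Member peaks had somewhat larger median widths than other gene-end peaks, and similar median folds. The 111 Cre member peaks had a median width of 223 bp (95% interval of the median 197 to 249) and the 102 GFP member peaks 227.5 bp (195 to 270). Gene-end peaks of other genes had medians of 190 bp for Cre and 200 bp for GFP peaks, with intervals of 187 to 194 bp for Cre and 195 to 204 bp for GFP, so the intervals overlap in the GFP list but not in the Cre list. Widths ran from 147 to 729 bp for Cre peaks and from 144 to 979 bp for GFP peaks. Peaks of at least 300 bp made up 28.8% of Cre and 30.4% of GFP member peaks, against 22.8% for Cre and 23.6% for GFP at other genes. The widest peaks were at Rpl5, which binds 5S ribosomal RNA, with 729 bp in the Cre list, and at Rps18, with 979 bp in the GFP list. Rpl13a followed in both, with 693 bp for Cre and 955 bp for GFP peaks. Next came Rpl10 (692 bp), Rpl27a (585 bp) and Rps3a1 (564 bp) in the Cre list. In the GFP list these were Rpl3 (730 bp) and Rpl24 (708 bp).

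The region of Rps18 shows that width depends on where the caller splits a domain. The GFP list had 1 peak of 979 bp there, chromosome 17, 33954300 to 33955278. In the Cre list 2 peaks of 289 and 331 bp, with an interval of less than 100 bp between them, lay within the same stretch. At the tallest peaks width did not follow strength: Cre member peaks of at least 20 fragments had a median width of 190 bp and GFP ones 194.5 bp.

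The median fold of member peaks was 6.47 for Cre and 6.80 for GFP peaks, and gene-end peaks of other genes had medians of 6.47 for Cre and 6.67 for GFP peaks. The median pileup was 13 in both libraries. Larger shares of member peaks were at the top of each list. Of the member peaks, 8 Cre peaks (7.21%, 3.16 to 13.7) and 5 GFP peaks (4.90%, 1.61 to 11.1) were in the top 1% of their own list by fold, against 2.61% for Cre and 2.46% for GFP at other genes. For the top 10% the counts were 23 Cre peaks (20.7%, 13.6 to 29.5) and 22 GFP peaks (21.6%, 14.0 to 30.8), against 14.2% for Cre and 14.8% for GFP. Of these 4 intervals, that of Cre peaks in the top 1% excludes the share at other genes and the other 3 include it.

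Members often had several peaks. Of the marked members, 36 had at least 2 peaks for Cre (56.3%) and 33 for GFP (56.9%), against 33.9% for Cre and 33.6% for GFP among other marked genes. Rpl4 had 8 peaks over both lists, 3 of them Cre and 5 GFP peaks. Rpl13a had 3 in each, and Rpl30 and Rps15a each had 4 Cre and 2 GFP peaks.

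Member peaks were shared between the libraries more often than other gene-end peaks. Of the Cre member peaks, 70 of 111 overlapped a GFP peak by at least 1 bp (63.1%, 53.4 to 72.0), against 50.8% of Cre peaks at other genes. Of the GFP member peaks, 74 of 102 overlapped a Cre peak (72.5%, 62.8 to 80.9), against 48.5% at other genes. A peak of the other library lay within 1 kb of 87.4% of Cre and 93.1% of GFP member peaks, against 72.0% for Cre and 70.3% for GFP peaks at other genes. The lowest peaks were shared least, with 4 of 13 Cre (30.8%) and 3 of 11 GFP (27.3%) member peaks of 7 to 9 fragments. At other genes the shares for 7 to 9 fragments were close to these, with 26.7% for Cre and 25.3% for GFP peaks. Of Cre member peaks with 10 to 14 fragments 32 of 61 overlapped (52.5%, 39.3 to 65.4), and of those with 15 to 19 fragments 20 of 21 did (95.2%, 76.2 to 99.9). Of Cre member peaks with at least 20 fragments 14 of 16 did. At other genes the Cre shares were 41.5% for 10 to 14 fragments, 67.5% for 15 to 19 and 91.2% for at least 20. Of GFP member peaks with 10 to 14 fragments 42 of 58 overlapped (72.4%, 59.1 to 83.3), against 39.0% at other genes. Of those with 15 to 19 fragments 17 of 21 did (81.0%, 58.1 to 94.6), against 67.7% at other genes, which that interval includes. Of those with at least 20 fragments 12 of 12 did, against 91.4% at other genes. Where peaks overlapped, their summits were close, with a median distance of 35.5 bp over the Cre peaks and 41.5 bp over the GFP peaks, against 52 bp for Cre and 51 bp for GFP at other genes.

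Some member peaks also lie at other genes. Another protein-coding gene had an end within 1 kb of an end of 32 members, of which 25 were marked in the Cre and 23 in the GFP list. Of the 56 members without such a neighbour, 39 were marked for Cre (69.6%) and 35 for GFP (62.5%). Of all protein-coding genes, with or without a neighbour, 13.5% were marked for Cre and 14% for GFP. Whether a neighbour bears on the mark was not tested. Of the member peaks, 28 Cre peaks (25.2%) and 32 GFP peaks (31.4%) lay at an end of another gene as well. The matching shares over all genes and all gene-end peaks were not computed. These counts of neighbours therefore do not tell whether members differ from other genes. Ribosomal protein genes have many processed copies elsewhere in the genome, and how the authors treated reads that fit several places is not given in the sources used here.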

How the data were processed

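H3K27ac ChIP-seq peak lists of a Cre and a GFP culture were read as deposited, 1 list per library. Tools named, without roles, in the submitters' processing notes are SICER, Picard, BWA and bcl2fastq 1.8.4, and the build is mm10. The deposited lists have the column order of MACS2 output; not given in the sources used here are the caller's version, settings and control library. The deposited score equals 10 times the −log10 q-value, cut to an integer. The deposited fold is the authors' ratio of observed to expected pileup at the summit, and the −log10 values deposited with it (of a p-value and a q-value) belong to the same position. Folds, scores and q-values served to describe, filter or rank peaks inside their own list.

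The summit pileup was solved from the fold (with 1 added to both pileups) and the p-value under a Poisson upper tail; a whole number within 0.001 resulted for 100% of peaks. Total read depth is not given in the sources used here, so the background ratio stands in for relative depth. Genes came from RefSeq's table of GRCm38.p6, whose chromosomes are those of mm10, without strand; strand and starts came from its promoter table, which lists 68 members. Coordinates are 1-based. Shares carry exact Clopper-Pearson 95% intervals, pileups exact Poisson intervals and medians binomial order-statistic intervals. The intervals of shares and medians treat genes or peaks as independent draws. The Poisson intervals cover counting error only, and PCR copies are not independent molecules. No interval covers variation between cultures. With 1 library per group no test was run. Computation used python 3.11.15, numpy 2.4.6, pandas 2.3.3 and scipy 1.17.1, and the code was tested on simulated data.

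The members, the gene lists, the motifs and the settings were chosen with earlier results of these data known. Members were named by a rule: the 10 of highest fold and 5 widest per list, those marked in 1 list alone, the 5 with most peaks, those with no peak, paralogs, and the 3 nearest the window's edge on each side. Some genes that the rule names are not reported here. Genes used as examples of position or ratio, and the printed promoters, were chosen after their values were seen. Alternatives varied the window, the q-value threshold, the overlap and the members.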

Additional observations from a re-analysis of the deposited data

How the results depend on the processing

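Of 105 alternatives over 13 results, 87 stayed within the limit (1.5 times for a count, the interval for a share or median) and 18 moved. Members marked in the Cre list alone numbered 5 with a window of 2.5 kb. Those marked in the GFP list alone, 3 with the settings used above, numbered 5 with a window of 500 bp, 6 at a −log10 q-value threshold of 5, 6 at a threshold of 10, 7 among the top 5000 peaks and 1 at the 5′ end only. Shares of all genes marked in 1 list alone were not computed for these alternatives, so these counts have no background to be read against. At the q-value threshold of 10, 26 members were marked for Cre (3.66% of all genes), 22 for GFP (3.87%) and 16 in both (2.28%). Merging peaks within 500 bp gave median widths of 341 bp for Cre and 326 bp for GFP. The threshold of 5 gave a Cre median fold of 7.47 and overlap shares of 73.1% for Cre and 81.0% for GFP peaks. Overlap of at least 50% of both peaks gave 40.5% for Cre and 44.1% for GFP peaks, and a peak of the other list within 1 kb gave 87.4% and 93.1% for Cre and GFP peaks. These alternatives differ by construction in how many peaks or bases they take. The windows at listed starts and the alternatives on position were chosen after seeing the data.

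No paired analysis was possible because each group had 1 library. Pileups of 7 to 20 fragments leave wide counting error at a single gene, and the calls in 1 list alone rest on counts of 9 to 21 fragments.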

Other observations

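Ribosomal protein genes host many small nucleolar RNAs (snoRNAs) in their introns, which guide modification of ribosomal RNA. A snoRNA gene lay inside 29 of the 88 members (33.0%, exact 95% interval 23.3 to 43.8), against 343 of the other protein-coding genes (1.57%). Of the 29 host members, 25 were marked in the Cre list (86.2%, 68.3 to 96.1) and 23 in the GFP list (79.3%, 60.3 to 92.0). Of the 59 members without a snoRNA, 39 were marked in the Cre list (66.1%, 52.6 to 77.9) and 35 in the GFP list (59.3%, 45.7 to 71.9). The intervals overlap in each list. All 12 paralogs and other symbols are among the 59, and Cre peaks marked 2 of the 12 and GFP peaks 1. The split by snoRNA therefore also sets paralogs apart from host genes. Core genes alone were not split in this way, so the lower shares cannot be tied to the lack of a snoRNA. Rpl4 holds 5 annotated snoRNA genes and was marked in both lists, as were Rpl13a and Rpl7a, which hold 4 each.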
